A study of Mus musculus with 8 samples.

Results

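The contractile genes of smooth muscle cells and myofibroblasts are described here in mouse pancreatic tumour isografts, that is, tumour tissue transplanted into a host of the same genetic background. The members are 10 genes, chosen by symbol, and all 10 have a row among the 19129 genes tested. Acta2, Tagln, Myl9, Cnn1, Myh11, Des and Tpm2 encode parts of the contractile apparatus and its skeleton, and Rgs5, Cspg4 and Notch3 encode signalling and surface proteins of mural cells, the pericytes and smooth muscle cells that wrap blood vessels. RNA came from the isografts of 8 mice. Those of 4 mice are labelled MEKi, after trametinib given for 7 days, a drug that blocks MEK, the kinase upstream of ERK. Those of the other 4 are labelled control, and whether these mice had a vehicle, and the genotype, strain and age of all 8 and the cells transplanted, are not given in the sources read here. Values are variance-stabilised by the authors on a log2 scale, which follows the log2 of reads for abundant genes and is compressed for genes with few reads.

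Smooth muscle contracts when the myosin heavy chain encoded by Myh11 pulls on filaments of smooth muscle actin, the product of Acta2. The pull is switched on by phosphorylation of the regulatory light chain encoded by Myl9, and calponin (Cnn1), transgelin (Tagln) and beta-tropomyosin (Tpm2) bind the actin filament. Fibroblasts of a pancreatic tumour can take up part of this programme, and are then called myofibroblasts, for which Acta2 is the usual marker. Many of these genes are switched on by serum response factor (SRF) with its partners of the myocardin family, which act through a sequence called the CArG box.

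SRF sites were looked for in the 250 bases before the RefSeq start of each gene, since they are the known shared element of these promoters. Promoters of 8 of the 10 genes were in the RefSeq table used (build GRCm38.p6). The CArG box has CC, then 6 bases that are A or T, then GG, and reads alike on both strands, so that a single scan covers both. With all 6 central bases A or T it was found before 1 of the 8 genes, Myl9, and in 1.47% of all 32851 promoters of the table. With at most 1 other base among the 6 it was found before Acta2 and Myl9, 2 times each, and in 8.59% of all promoters. The 4 matches are shown with 10 bases on each side, the box in capitals, to set those of the most abundant contractile gene beside those of its light chain partner.
Acta2 first: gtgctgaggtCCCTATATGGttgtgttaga
Acta2 second: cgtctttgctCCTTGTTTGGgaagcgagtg
Myl9 first: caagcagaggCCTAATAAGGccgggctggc
Myl9 second: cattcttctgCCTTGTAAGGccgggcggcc
The Acta2 stretches lie at chr19:34255438-34255467 and chr19:34255388-34255417 on the minus strand, with the boxes starting 84 and 34 bases before the RefSeq start. Those of Myl9 lie at chr2:156775293-156775322 and chr2:156775355-156775384 on the plus strand, with the boxes starting 161 and 99 bases before the start. A match of letters is a description, and no binding was measured. The letters TGGGAA, the core bound by the Notch effector RBPJ, were found on either strand before 1 of the 8 genes, Acta2, where they overlap the second box, and in 21.6% of all promoters.

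Reads in tested genes numbered 20090101 to 38569550 per library. The drug label was checked through Dusp6, a phosphatase gene that ERK activity switches on. Dusp6 had 8.88, 12.12, 12.20 and 11.01 in MEKi replicates 1 to 4, against 12.19, 12.14, 9.31 and 9.24 in control replicates 1 to 4. High and low libraries were thus found under both labels, so each comparison is one of labels. The tissue label was checked on 10 ductal tumour epithelium markers, whose summed level was 5550 to 7734 scaled CPM (reads after size factor scaling, on the usual CPM scale) in MEKi libraries and 6334 to 7656 in control libraries. Acinar tissue, the enzyme-secreting part of the pancreas, was unevenly present: the 11 measured acinar markers of 12 listed all averaged lower in MEKi libraries, with a summed level of 12.003 to 2352 scaled CPM in MEKi libraries and 197 to 137578 in control libraries. MEKi 4 stood apart from the other libraries over all genes, and MEKi 3 less so. Limma's array weights are lower for libraries that deviate more from their group. They were 0.392 for MEKi 4 and 0.825 for MEKi 3, against 1.05 to 1.53 for the other 6 libraries. MEKi 4 was the highest library for 23.2% of all genes. In bulk tumour RNA, fewer cells of a type and less RNA per cell cannot be told apart.

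No contractile or mural gene passed the test between the labels. Means of 8 of the 10 genes were higher in MEKi libraries and 2 were lower, with a median log2 difference of 0.17, where the median over all 19129 genes was 0.01 and 51.6% of all genes had the higher mean under that label. Limma called 0 of the 10 genes after Benjamini-Hochberg adjustment over all genes (adjusted p = 1 for each), where it called 0.00523% of all genes. At an unadjusted p under 0.05 stood 2 of the 10, Cnn1 and Myh11, beside 1.77% of all genes, or 0.465% counted in their direction, higher in MEKi libraries. Limma voom on the recovered reads also called 0 of the 10 and also had 2 at an unadjusted p under 0.05. Without MEKi 4 limma called 0 of the 10 and had 0 at an unadjusted p under 0.05, with log2 differences of 0.29 for Cnn1, 0.28 for Myh11, 0.19 for Acta2, 0.25 for Tagln, 0.12 for Des and 0.12 for Tpm2.

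**Figure D1:**
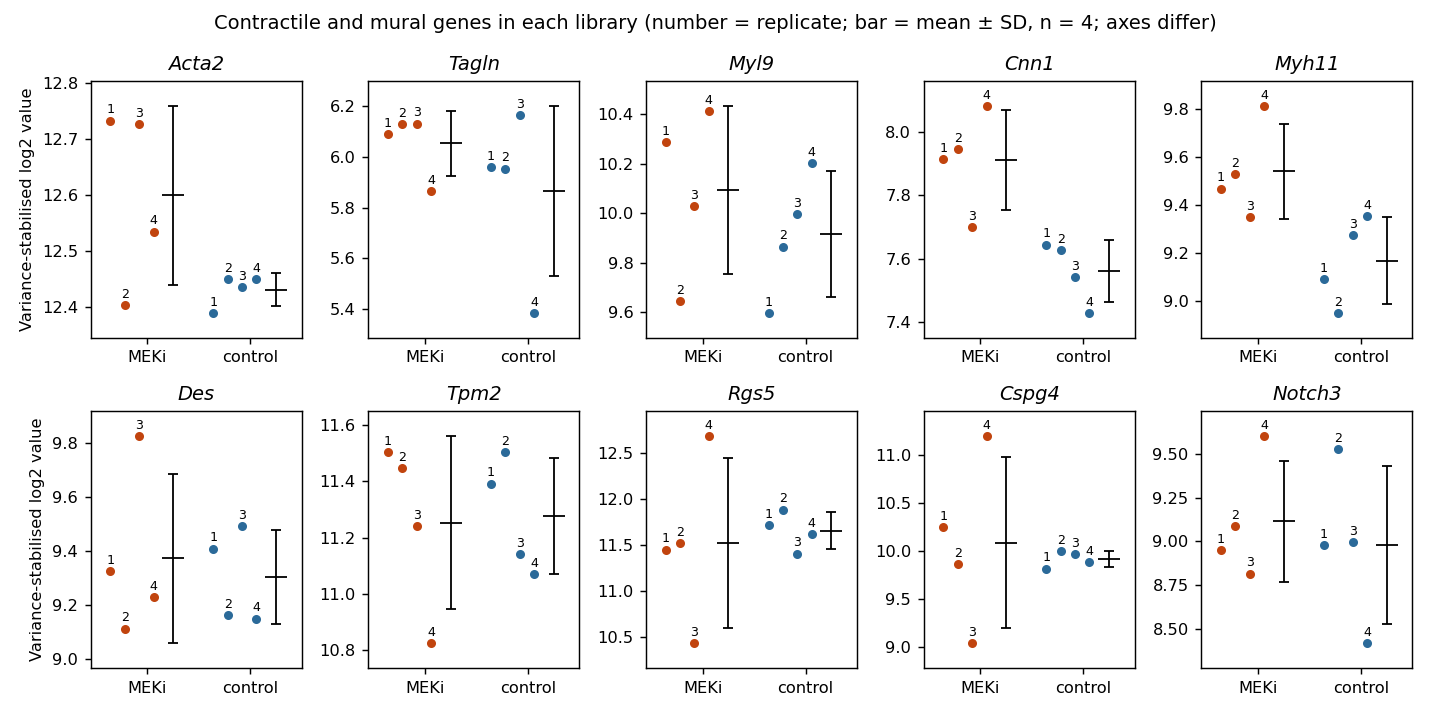
Variance-stabilised log2 value of each of the 10 genes (y axis, a separate range per gene) in the 4 MEKi and 4 control libraries (x axis), with replicate numbers above the points and bars for mean ± SD, n = 4. Cnn1 is the gene whose MEKi values all lie above its control values, and Rgs5 and Cspg4 have their highest value in MEKi 4 and their lowest in MEKi 3.

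Of the thick filament genes, Myh11 had the highest difference of the 10 and Myl9 a smaller one. Myh11 (chromosome 16, 14194535 to 14291372), which encodes the myosin heavy chain of smooth muscle and marks differentiated smooth muscle cells, had 9.47, 9.53, 9.35 and 9.81 in MEKi replicates 1 to 4, against 9.09, 8.95, 9.28 and 9.35 in control replicates 1 to 4. The groups overlapped only in that MEKi 3 lay just below control 4. The mean was 9.54 ± 0.20 in MEKi libraries and 9.17 ± 0.18 in control libraries (SD, n = 4 each), a log2 difference of 0.37 (SE 0.14, 95% interval 0.06 to 0.69, limma adjusted p = 1). Myl9 (chromosome 2, 156775420 to 156781658), the regulatory light chain, had 10.29, 9.64, 10.03 and 10.41 in MEKi replicates 1 to 4, against 9.60, 9.87, 9.996 and 10.20 in control replicates 1 to 4. Both labels had libraries near the bottom of the range, MEKi 2 and control 1, and the log2 difference was 0.18 (SE 0.19, 95% interval -0.24 to 0.60). It was 0.07 without MEKi 4 or without control 1 and 0.33 without MEKi 2.

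Among the actin filament genes, calponin separated the labels and smooth muscle actin did so but for MEKi 2. Cnn1 (chromosome 9, 22099216 to 22109630) had 7.91, 7.95, 7.70 and 8.08 in MEKi replicates 1 to 4, against 7.64, 7.63, 7.54 and 7.43 in control replicates 1 to 4. Its 4 MEKi values were all above its 4 control values, an order held by 0.565% of all genes, while the opposite order was held by 0.701%; of the 10 members 1 had the first and 0 the second. This rests on few reads, 143 to 323 per MEKi library and 90 to 156 per control library. The mean was 7.91 ± 0.16 in MEKi libraries and 7.56 ± 0.10 in control libraries (SD, n = 4 each), a log2 difference of 0.35 (SE 0.14, 95% interval 0.04 to 0.66, limma adjusted p = 1). The difference of Cnn1 stayed between 0.29 and 0.42 when each library was left out in turn, and that of Myh11 between 0.28 and 0.44.

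Acta2 (chromosome 19, 34241090 to 34255590), the smooth muscle actin gene and the myofibroblast marker, had 12.73, 12.40, 12.73 and 12.54 in MEKi replicates 1 to 4, against 12.39, 12.45, 12.44 and 12.45 in control replicates 1 to 4. The control libraries lay close together, MEKi 1 and MEKi 3 stood highest, and MEKi 2 fell inside the control range. The mean was 12.60 ± 0.16 in MEKi libraries and 12.43 ± 0.03 in control libraries (SD, n = 4 each), a log2 difference of 0.17 (SE 0.10, 95% interval -0.05 to 0.39). Tpm2 (chromosome 4, 43514711 to 43523765), whose beta-tropomyosin runs along the actin filament and is also made in cells that are not muscle, had 11.50, 11.45, 11.24 and 10.83 in MEKi replicates 1 to 4, against 11.39, 11.50, 11.14 and 11.07 in control replicates 1 to 4. Its labels overlapped almost entirely, with MEKi 4 lowest, and the log2 difference was -0.02 (SE 0.16, 95% interval -0.39 to 0.34). The sign of this difference turned under several alternatives, aligned medians of the libraries among them.

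Tagln (chromosome 9, 45929619 to 45936058), which encodes the actin-binding protein transgelin and is commonly abundant in smooth muscle, was close to the detection floor. It held 18, 14, 22 and 15 reads in MEKi replicates 1 to 4, against 11, 14, 14 and 1 read in control replicates 1 to 4. On the log2 scale these were 6.09, 6.13, 6.13 and 5.86 in the MEKi libraries and 5.96, 5.95, 6.17 and 5.38 in the control libraries, where 5.12 stands for 0 reads. The labels overlapped, with a log2 difference of 0.19 (SE 0.17, 95% interval -0.19 to 0.56), and this was 0.03 without control 4 and 0.77 by limma voom on the recovered reads. Of the 1988 exon bases of Tagln in GENCODE, 62.4% also lie in exons of Gm48529, an antisense gene on the other strand (45930112 to 45933738), and 5.43% in exons of Pcsk7. Gm48529 held 13 to 38 reads per library. How reads in such shared stretches were counted is not stated, and the part of this overlap in the low Tagln count was not tested. The paralog Tagln2, a transgelin gene of many cell types, had 13.96 ± 0.43 in MEKi libraries and 13.98 ± 0.16 in control libraries (SD, n = 4 each).

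Des (chromosome 1, 75360329 to 75368579), the intermediate filament gene of muscle cells and also a marker of pancreatic stellate cells and pericytes, had 9.33, 9.11, 9.83 and 9.23 in MEKi replicates 1 to 4, against 9.41, 9.16, 9.49 and 9.15 in control replicates 1 to 4. MEKi 3 was the highest library and the other 3 MEKi libraries lay among or below the controls. The log2 difference was 0.07 (SE 0.17, 95% interval -0.31 to 0.45), and it was -0.08 without MEKi 3. Antisense gene models share 5.86% of the exon bases of Des and 6.03% of those of Notch3.

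The mural cell genes Rgs5 and Cspg4 had a wider spread in MEKi libraries than in control libraries, a difference in spread that was not tested. The SD was wider in MEKi libraries for 8 of the 10 members and for 61.9% of all genes. Rgs5 (chromosome 1, 169655501 to 169695813), which encodes a regulator of G protein signalling and is a pericyte marker, had 11.45, 11.52, 10.43 and 12.68 in MEKi replicates 1 to 4, against 11.72, 11.88, 11.40 and 11.62 in control replicates 1 to 4. Cspg4 (chromosome 9, 56865033 to 56899870), which encodes the surface proteoglycan NG2, had 10.25, 9.87, 9.04 and 11.20 in MEKi replicates 1 to 4, against 9.82, 10.0001, 9.97 and 9.88 in control replicates 1 to 4. In both genes MEKi 3 was the lowest and MEKi 4 the highest of all 8 libraries, an order that 4.97% of all genes had. These are the libraries with the lowest array weights, and genes of other cells also had a wide MEKi spread, such as the epithelial adhesion gene Epcam with an SD of 1.13 in MEKi libraries and 0.18 in control libraries. The SD of Rgs5 was 0.92 in MEKi libraries and 0.20 in control libraries, and that of Cspg4 was 0.90 in MEKi libraries and 0.08 in control libraries (n = 4 each). Mean differences were small beside this spread, at -0.14 for Rgs5 (SE 0.38, 95% interval -0.99 to 0.72) and 0.17 for Cspg4 (SE 0.37, 95% interval -0.65 to 0.99). Without MEKi 4 they were -0.52 and -0.20, and without MEKi 3 they were 0.23 and 0.52. With array weights the difference was -0.28 for Rgs5, 0.06 for Cspg4 and 0.03 for Notch3. The mean of the acinar markers was also lowest in MEKi 3 (5.98), and within MEKi libraries highest in MEKi 4 (11.49). It was higher still in control 2 (15.21) and control 3 (16.89). The part of acinar content in the spread of Rgs5 and Cspg4 was not tested.

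Notch3 (chromosome 17, 32120820 to 32166852), the Notch receptor of vascular smooth muscle cells and pericytes, had 8.95, 9.09, 8.82 and 9.60 in MEKi replicates 1 to 4, against 8.98, 9.53, 8.998 and 8.42 in control replicates 1 to 4. Its highest library was again MEKi 4, but control 2 was close to it and control 4 was the lowest. The log2 difference was 0.13 (SE 0.24, 95% interval -0.41 to 0.68), and it was -0.03 without MEKi 4 and -0.05 without control 4.

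**Figure D2:**
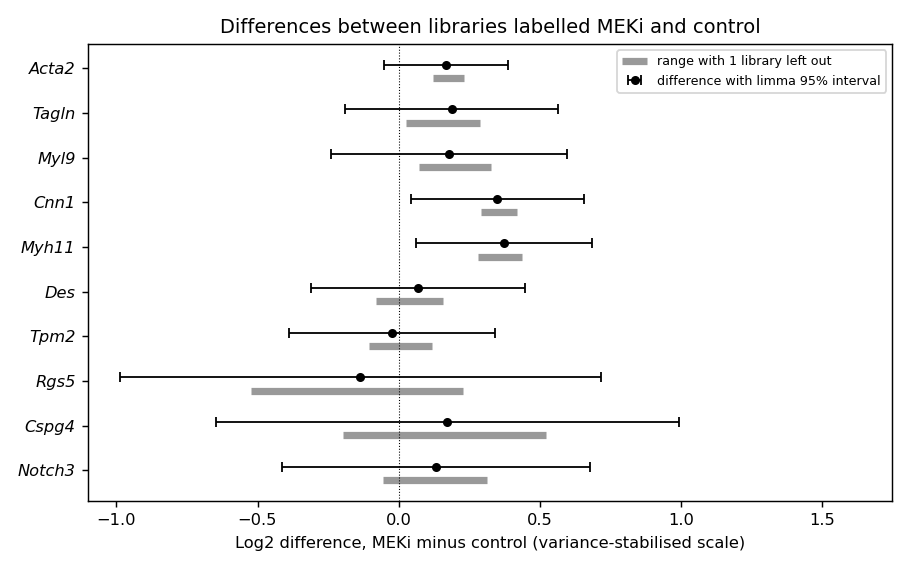
Log2 difference of each gene, MEKi minus control (x axis, variance-stabilised scale), with limma 95% intervals as black bars and, below each, a grey bar for the range when each of the 8 libraries is left out in turn. Intervals of Cnn1 and Myh11 lie above 0 before any adjustment, and the widest interval is that of Rgs5, -0.99 to 0.72.

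Per length of exon, Acta2 was the most abundant of the 10 genes and Tagln, as counted, the least. The scale is scaled RPKM, the scaled CPM divided by kilobases of GENCODE exon, and all values on it are levels. Acta2 had 108 ± 11.9 in MEKi libraries and 95.9 ± 1.91 in control libraries (SD, n = 4 each), and its lowest library, 93.2, lay above the highest library of Myl9, 43.0. Myl9 followed with 34.8 ± 8.22 in MEKi libraries and 30.2 ± 5.60 in control libraries. Tpm2 had 32.0 ± 6.51 in MEKi libraries and 32.3 ± 4.71 in control libraries, and Rgs5 had 28.4 ± 18.8 in MEKi libraries and 27.0 ± 3.76 in control libraries. These 3 neighbours did not differ beyond their spread over libraries. Des came next at 6.26 ± 1.63 in MEKi libraries and 5.84 ± 0.786 in control libraries, with every library below the lowest of Rgs5.

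The other markers of differentiated smooth muscle and mural cells were low. Cspg4 had 3.85 ± 2.53 in MEKi libraries and 2.91 ± 0.179 in control libraries, and Myh11 had 3.47 ± 0.539 in MEKi libraries and 2.60 ± 0.364 in control libraries. Cnn1 had 2.502 ± 0.357 in MEKi libraries and 1.78 ± 0.172 in control libraries, and Notch3 had 2.38 ± 0.689 in MEKi libraries and 2.18 ± 0.769 in control libraries. These 4 overlapped over libraries. Tagln lay below all of them in every library, at 0.300 ± 0.0773 in MEKi libraries and 0.217 ± 0.144 in control libraries. The part of its exon overlap with Gm48529 in this low level was not tested. The most abundant library of Rgs5 was MEKi 4 at 55.2 and its least abundant was MEKi 3 at 11.1, against 22.4 to 31.4 in the control libraries.

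**Figure D3:**
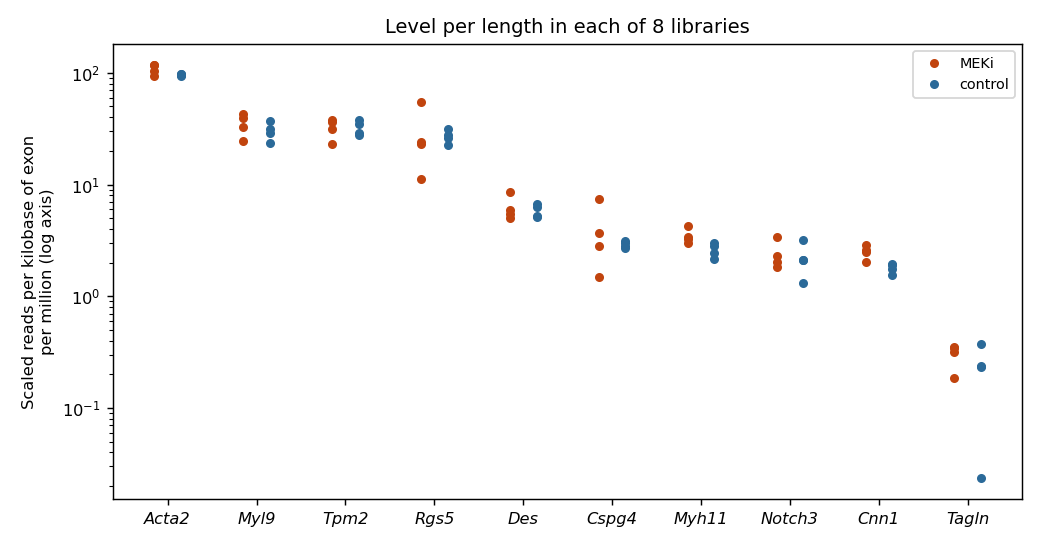
Scaled RPKM, reads per kilobase of exon after size factor scaling (y axis, log scale), of the 10 genes (x axis, in order of their mean over 8 libraries), with 1 point per library, MEKi left and control right. Acta2 stands near 100, Tagln below 0.4, and Rgs5 and Cspg4 show a wide MEKi spread beside a narrow control spread.

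No pair of the 10 genes passed the test of a shared pattern over the 8 libraries. Of 45 pairs, 26 had a positive Pearson r, and the median r was 0.11. By the exact permutation test over all pairings, two-sided, 2 pairs had an unadjusted p under 0.05 for r, and 0 passed after Benjamini-Hochberg adjustment over the 45 pairs (smallest adjusted p = 0.498 for r and 0.482 for Spearman's rho). Within the 7 contractile genes the median r over 21 pairs was 0.24, and within the 3 mural genes it was 0.61 over 3 pairs. The strongest pair was Rgs5 and Cspg4, with r = 0.92 (exact permutation p = 0.0269, adjusted p = 0.498, n = 8) and rho = 0.48 (exact permutation p = 0.243, adjusted p = 0.911). Without MEKi 3 and MEKi 4, the libraries farthest from the median of Rgs5, r was -0.32, so the relation rests on these libraries. Within the control label r was 0.03. Cnn1 and Myh11 had r = 0.72 (exact permutation p = 0.0402, adjusted p = 0.498) and rho = 0.69 (exact permutation p = 0.0694, adjusted p = 0.911), with r = 0.29 without MEKi 2 and MEKi 4.

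Each gene was also set against the mean of 5 marker lists over the 8 libraries, 50 relations in all, of which 0 passed adjustment and 3 had an unadjusted exact permutation p under 0.05 for r. The strongest was Tpm2 with the ductal tumour epithelium list, which holds the simple keratins and cell adhesion genes of the tumour cells, at r = 0.90 (exact permutation p = 0.00196, adjusted p = 0.0980, n = 8). Its rho was 0.79 (exact permutation p = 0.0279, adjusted p = 0.676), and r was 0.92 without MEKi 2 and MEKi 4. Myl9 had r = -0.72 with the same list (exact permutation p = 0.0166, adjusted p = 0.415) and rho = -0.83 (exact permutation p = 0.0154, adjusted p = 0.676), with r = -0.47 without MEKi 2 and MEKi 4. With the blood endothelium list Myl9 had r = -0.78 (exact permutation p = 0.0264, adjusted p = 0.441) and rho = -0.71 (exact permutation p = 0.0576, adjusted p = 0.676), with r = -0.71 without control 1 and control 2. With the acinar list r was 0.41 for Rgs5 (exact permutation p = 0.329) and 0.37 for Cspg4 (exact permutation p = 0.378), adjusted p = 0.788 for each. Without the acinar-rich control 2 and control 3 it was 0.98 and 0.96. These 2 relations were singled out after their values were seen.

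The rest of the contractile apparatus gave no call either. Of 18 other thin filament and cytoskeleton genes of smooth muscle, 14 averaged higher in MEKi libraries, with a median log2 difference of 0.12, and limma called 0 and had 0 at an unadjusted p under 0.05. Cald1, which encodes the actin-binding protein caldesmon and had the smallest p of this list, had 13.30 ± 0.30 in MEKi libraries and 13.04 ± 0.08 in control libraries (SD, n = 4 each). Actg2, the enteric smooth muscle actin, had 9.51 ± 0.54 in MEKi libraries and 9.30 ± 0.43 in control libraries. The smooth muscle genes Lmod1, for an actin filament nucleator, and Smtn, for smoothelin, had log2 differences of 0.15 (SE 0.26) and 0.01 (SE 0.37). Of 16 genes of the myosin motor and its light chain control, 9 averaged higher in MEKi libraries, with a median of 0.06, and limma called 0 and had 0 at an unadjusted p under 0.05. Mylk, the kinase gene that phosphorylates the light chain, had 11.46, 11.24, 11.78 and 12.78 in MEKi replicates 1 to 4, against 11.13, 11.36, 11.47 and 11.36 in control replicates 1 to 4. MEKi 4 was its highest library, as for Rgs5, Cspg4, Notch3, Cnn1, Myh11 and Myl9. Those are 6 of the 10 members, beside 23.2% of all genes. Acta2, Tagln, Des and Tpm2 were not highest in MEKi 4, and Tpm2 was lowest there.

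No regulator of the programme passed the test. Of 10 transcription control genes, 7 averaged higher in MEKi libraries, with a median log2 difference of 0.05, and limma called 0 and had 0 at an unadjusted p under 0.05. Srf had 10.10 ± 0.08 in MEKi libraries and 9.92 ± 0.20 in control libraries (SD, n = 4 each). Myocd, whose product myocardin drives the smooth muscle programme with SRF, held 15, 4, 11 and 27 reads in MEKi replicates 1 to 4, against 7, 5, 2 and 7 reads in control replicates 1 to 4. Klf4, a repressor of smooth muscle genes, had 9.83 ± 0.15 in MEKi libraries and 9.65 ± 0.28 in control libraries.

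Ligands, receptors and targets of Notch signalling were measured next. Bulk RNA does not show which cells send or receive this signal. Of 13 Notch genes besides Notch3, 8 averaged higher in MEKi libraries, with a median log2 difference of 0.07, and limma called 0 and had 0 at an unadjusted p under 0.05. Jag1, the ligand that activates Notch3 on mural cells, had 11.11, 11.78, 11.91 and 11.39 in MEKi replicates 1 to 4, against 11.97, 11.75, 11.13 and 11.04 in control replicates 1 to 4. Its labels overlapped, and so did those of the endothelial ligand Dll4 (log2 difference -0.04, SE 0.50) and of the target Heyl (-0.05, SE 0.34). Hey2, a target gene with 13 to 70 reads in MEKi libraries and 6 to 22 in control libraries, had 6.47 ± 0.26 in MEKi libraries and 6.09 ± 0.24 in control libraries (SD, n = 4 each).

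Other pericyte markers were divided in whether they had the order of libraries seen in Rgs5 and Cspg4. Of 12 such markers, 3 were highest in MEKi 4 (Higd1b, Mcam and Gucy1b1), as were 23.2% of all genes. Lowest in MEKi 3 were 5 (Higd1b, Mcam, Vtn, Ndufa4l2 and Cox4i2), as were 13.8% of all genes. Both orders were held by 2 of the 12 and by 4.97% of all genes. Higd1b had 7.33, 7.05, 6.18 and 8.25 in MEKi replicates 1 to 4, against 7.16, 7.57, 7.02 and 7.86 in control replicates 1 to 4. Mcam, which encodes the adhesion protein CD146 of mural and endothelial cells, had 11.09, 11.36, 10.68 and 11.57 in MEKi replicates 1 to 4, against 11.30, 11.54, 11.10 and 10.94 in control replicates 1 to 4. Both followed Rgs5 and Cspg4 at these extremes, while the genes described next did not. Between the labels, of the 12 markers 4 averaged higher and 8 lower in MEKi libraries, with a median log2 difference of -0.06, and limma called 0 and had 1 at an unadjusted p under 0.05, the cation channel gene Trpc6 (8.00 ± 0.33 in MEKi libraries and 7.54 ± 0.13 in control libraries, SD, n = 4 each). Pdgfrb, the receptor that pericytes and fibroblasts share, had 11.15, 11.01, 12.08 and 11.46 in MEKi replicates 1 to 4, against 11.19, 11.63, 11.04 and 10.75 in control replicates 1 to 4. Its highest library was MEKi 3, where Rgs5 and Cspg4 were lowest. Kcnj8, which with Abcc9 encodes the potassium channel of pericytes, had 7.28, 8.29, 8.09 and 7.52 in MEKi replicates 1 to 4, against 8.53, 8.56, 7.40 and 6.97 in control replicates 1 to 4. Abcc9 had 8.76, 9.86, 9.64 and 9.28 in MEKi replicates 1 to 4, against 10.02, 10.21, 8.94 and 8.34 in control replicates 1 to 4. Both genes were highest in MEKi 2, MEKi 3, control 1 and control 2, which are also the 4 libraries with the highest Dusp6. The same 4 libraries were highest for Jag1, though not for Dll4. Blood endothelium markers were divided: Cdh5, Tie1, Cldn5 and Erg had this split, and Pecam1, Kdr, Tek, Emcn, Esam and Vwf did not. Of the myofibroblast matrix genes, Tnc, Lrrc15, Inhba and Tgfb1 had it and the others of that list did not. The share of all genes with this split was not counted, and a relation to Dusp6 was not tested.

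**Figure D4:**
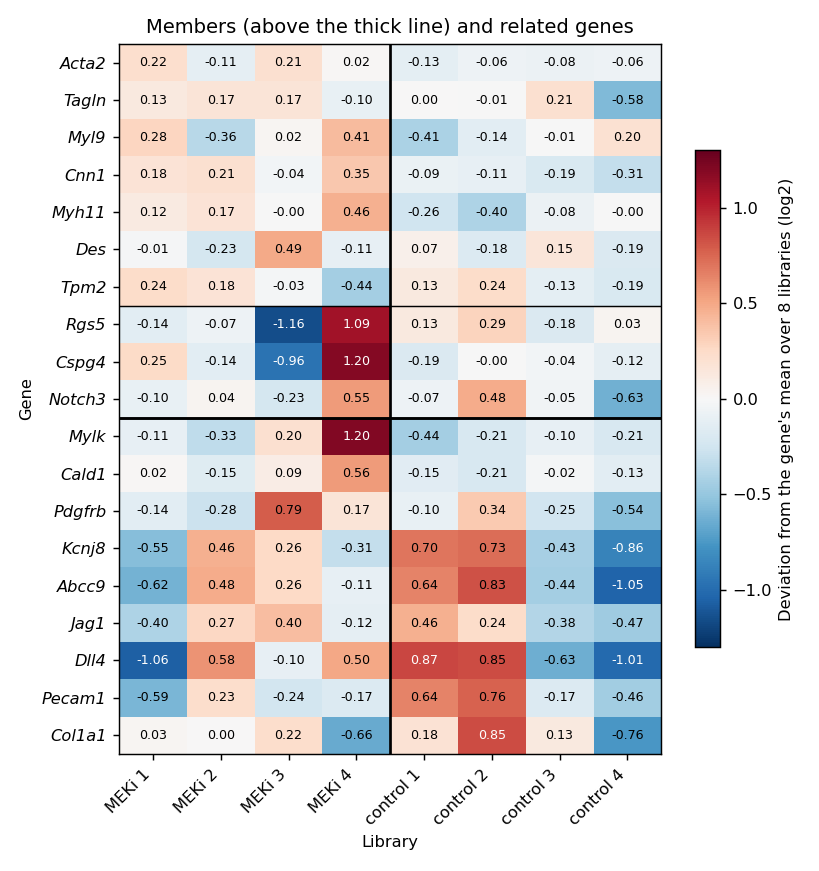
Deviation of each gene (rows) from its own mean over the 8 libraries (columns, MEKi left of the line, control right), in log2 units on the variance-stabilised scale, red above and blue below the mean. Rgs5 and Cspg4 are at -1.16 and -0.96 in MEKi 3 and at 1.09 and 1.20 in MEKi 4, while Kcnj8, Abcc9 and Dll4 are highest in control 1 and control 2.

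Markers of the cells that could carry these transcripts were measured beside them. All 10 pan-fibroblast markers averaged lower in MEKi libraries, with a median log2 difference of -0.44, a summed level of 2845 to 4854 scaled CPM in MEKi libraries and 2565 to 7688 in control libraries, and 2 genes, Mfap5 and Pdpn (log2 difference -0.76 for each), at an unadjusted p under 0.05. Limma called 0 of them. Col1a1, a main collagen gene of fibroblasts, had a log2 difference of -0.20 (SE 0.32). Of 12 genes of the myofibroblast matrix, 3 averaged higher and 9 lower in MEKi libraries, with a median of -0.18, and limma called 0 and had 0 at an unadjusted p under 0.05. Postn, the matrix protein gene periostin, had 13.66, 13.64, 12.70 and 13.73 in MEKi replicates 1 to 4, against 13.62, 13.67, 13.70 and 13.47 in control replicates 1 to 4. Its lowest library was MEKi 3, as for Rgs5 and Cspg4. Summed levels of the 7 contractile genes were 392 to 469 scaled CPM in MEKi libraries and 381 to 398 in control libraries. Acta2 was the largest part of this sum, with 207 to 260 scaled CPM in MEKi libraries and 205 to 213 in control libraries. With the pan-fibroblast mean as a covariate the log2 difference moved most for Notch3 (0.38, against 0.13 without the covariate), Cspg4 (0.32, against 0.17), Tagln (0.32, against 0.19), Tpm2 (0.11, against -0.02) and Rgs5 (-0.04, against -0.14). It was 0.40 for Cnn1, 0.28 for Myh11, 0.21 for Acta2, 0.20 for Myl9 and 0.06 for Des, and limma called 0 genes.

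Of 10 blood endothelium markers, 2 averaged higher and 8 lower in MEKi libraries, with a median log2 difference of -0.17, a summed level of 139 to 253 scaled CPM in MEKi libraries and 129 to 335 in control libraries, and limma called 0 and had 0 at an unadjusted p under 0.05. Pecam1 had a log2 difference of -0.39 (SE 0.28). With the acinar marker mean as a covariate the differences were 0.42 for Cnn1, 0.41 for Myh11, 0.55 for Cspg4, 0.45 for Notch3, 0.17 for Rgs5, 0.32 for Tagln, 0.25 for Myl9, 0.15 for Acta2, 0.02 for Des and -0.06 for Tpm2, and limma called 0 genes. What part acinar, fibroblast or endothelial content has in these differences was not tested beyond these fits. Striated muscle, which shares Des and Tpm2, was represented by 7 measured markers of 12 listed, of which 4 averaged higher in MEKi libraries, and no measured marker was at 0 in every library. Their summed level was 24.7 to 31.6 scaled CPM in MEKi libraries and 22.6 to 25.7 in control libraries, and limma called 0 and had 0 at an unadjusted p under 0.05. Acta1 and Actc1, the striated muscle actins and close paralogs of Acta2, had values of 5.66 to 6.15 and 5.59 to 6.40 in MEKi libraries, against 5.34 to 5.87 and 5.58 to 6.27 in control libraries. How any reads shared between Acta2 and these related actin genes were counted is not stated.

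Genes whose pattern was most like the members were sought among the 16305 other genes at least as abundant as Tagln, by Pearson r over the 8 libraries to the mean z score of each group. For the 7 contractile genes the nearest was Sass6 (r = 0.88), followed by 4833422C13Rik (0.87), Slc39a13 (0.87), Muc3a (0.85) and Tusc1 (0.84), and 0 genes had r over 0.9. Each of the 7 had equal weight in this mean, Tagln with its 1 to 22 reads per library among them. For Rgs5, Cspg4 and Notch3 the nearest were Neurl4, Mtmr9, Lrrc8d, Ephb4 and Abcd4, each with r = 0.98, and 109 genes had r over 0.9. Ephb4, a receptor gene of venous endothelium, had 11.36, 11.39, 11.18 and 11.70 in MEKi replicates 1 to 4, against 11.37, 11.49, 11.40 and 11.37 in control replicates 1 to 4. The mean z score of the mural group was -1.52 in MEKi 3 and 1.94 in MEKi 4, so r depends most on these libraries. Control 2 at 0.64 and control 4 at -0.67 came next and also enter r.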

How the data were processed

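The labels' protocols name TRIzol extraction and a stranded total RNA library kit. STAR 2.5.3a, DESeq2 1.18.1 and GRCm38 are listed in the submitters' processing notes, while annotation, counting, strand setting and filter are not stated there. The deposited table holds log2 values after variance stabilisation, which its name records. Inverting the transformation from its floor (5.12) gave whole reads for 100% of values (within 0.01). Of 19431 rows, 32 without a gene name (0.101% to 0.167% of reads) were left out, and for 86 symbols with several rows the highest was kept. Scaled CPM are these reads divided by the recovered size factors and put on the CPM scale of the mean library. GENCODE (GRCm38) gave exon lengths and gene positions, which start at 1.

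Limma 3.58.1 (R 4.3.3, lmFit, eBayes with trend) compared the labels over 19129 genes, two-sided, without covariates, with Benjamini-Hochberg adjustment and a threshold of 0.05; it was tested on simulated data. Alternatives were other normalizations, moderations, filters, array weights, voom, covariates, a replicate block and each library left out. The members and gene lists were chosen with earlier results of these data known. Named genes are the members, each list's gene with the smallest p (none was called), 17 genes set by name, close paralogs and the 5 most similar genes. Tagln2, Cnn2, Mfap5, Epcam and 6 pericyte markers (Higd1b, Mcam, Gucy1b1, Vtn, Ndufa4l2 and Cox4i2) were added after their values were seen. So were Tnc, Lrrc15, Inhba, Tgfb1 and the blood endothelium markers other than Pecam1. Promoters are from RefSeq. Figures were drawn with matplotlib 3.10.9.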

Additional observations from a re-analysis of the deposited data

Results flagged for a closer look

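Of the 20 groups of 4 libraries formed by the 10 genes and the 2 labels, 1 held a library set apart from the rest of its group. Tagln in MEKi 4 had 5.86, against 6.09, 6.13 and 6.13 in MEKi replicates 1 to 3. The gap to the nearest library was above the critical share of the range for 4 samples, 0.829. Chance alone flags about 1 in 20 groups. The reads behind these values were 15 in MEKi 4 and 18, 14 and 22 in MEKi replicates 1 to 3, so that the difference is between counts near the detection floor.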

How the results depend on the processing

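Under 19 alternatives limma called 0 of the 10 genes, and 0 to 2 of them stood at an unadjusted p under 0.05. Their median log2 difference stayed between 0.09 and 0.28. Differences of Acta2, Tagln, Myl9, Cnn1 and Myh11 kept their sign under all alternatives in which they were tested (Tagln was not among the 75% of genes with the highest mean). The sign turned for Tpm2 with aligned medians (0.0043), array weights (0.0777), the pan-fibroblast covariate (0.11) and single libraries left out (range -0.11 to 0.12), for Rgs5 with the acinar covariate (0.17) and single libraries left out (range -0.52 to 0.23), and with single libraries left out for Des (range -0.0816 to 0.16), Cspg4 (-0.20 to 0.52) and Notch3 (-0.0543 to 0.31); the cause was not tested. The Tagln difference was 0.77 by voom; the cause was not tested. Among all genes, limma called 1; it called 0 with the filter to 75%, the acinar covariate, the pan-fibroblast covariate or the replicate block, and 0 to 2 with single libraries left out. Same-numbered libraries did not deviate together (correlations -0.33, 0.20, -0.46 and 0.02), and no pairing was used in the main test. These correlations cannot exclude that the numbers record a shared batch. With the replicate block 0 of the 10 genes were called. No pair of members passed adjustment with quantile normalization, aligned medians, voom values or any library left out, alternatives chosen after seeing the data. At 1 to 22 reads per library, Tagln gives no usable estimate of a difference.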

Other observations

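Relatives of the contractile genes that are used in many cell types gave no call by limma. Myl12a and Myl12b, the regulatory light chain genes closest to Myl9, had log2 differences of -0.03 (SE 0.13) and -0.04 (SE 0.14). The cytoplasmic actin genes Actb and Actg1 had 15.02 to 16.02 and 14.49 to 14.87 in MEKi libraries, against 15.18 to 15.68 and 14.50 to 15.01 in control libraries. Cnn2, a calponin gene of many cell types, had 12.03 ± 0.27 in MEKi libraries and 11.86 ± 0.20 in control libraries (SD, n = 4 each).

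Markers of further cell types were measured in the same libraries, and limma called 0 genes in each of these lists and had 0 at an unadjusted p under 0.05. Of 6 enteric muscle and pacemaker markers, 1 averaged higher in MEKi libraries, with a median log2 difference of -0.21. Barx1, a stomach mesenchyme gene with the smallest p here, had 6.25 ± 0.23 in MEKi libraries and 6.58 ± 0.39 in control libraries (SD, n = 4 each). Of 4 measured Schwann cell and glia markers of 7 listed, 3 had higher means, with a median of 0.10, and Gfap had 5.96 ± 0.16 in MEKi libraries and 5.71 ± 0.15 in control libraries. The 10 ductal tumour epithelium markers were split evenly, 5 higher and 5 lower, with a median of -0.01, and the tight junction gene Cldn4 had 9.20, 9.18, 8.91 and 7.32 in MEKi replicates 1 to 4, against 9.23, 9.14, 9.23 and 9.14 in control replicates 1 to 4. MEKi 4, the library with the highest Rgs5, Cspg4 and Mylk, was thus the lowest for Cldn4. Of 10 leukocyte markers, 2 had higher means, with a median of -0.19, and the integrin gene Itgam had 8.72 ± 0.57 in MEKi libraries and 9.39 ± 0.57 in control libraries. Troponin gene Tnni2 led the striated muscle list at 9.33 ± 0.14 in MEKi libraries and 9.08 ± 0.06 in control libraries, the matrix gene Tgfbi led the myofibroblast matrix list at 11.81 ± 0.44 in MEKi libraries and 12.11 ± 0.17 in control libraries, and the trypsinogen gene Prss2, the acinar marker with the smallest p, had 9.70 ± 2.78 in MEKi libraries and 14.32 ± 4.32 in control libraries (n = 4 each).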
